A study of Mus musculus with 6 samples.

Results

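Mouse zygotes cultured with the serine metabolism inhibitor CBR-5884 and S-adenosylmethionine (SAM) were compared with zygotes cultured with the solvent DMSO, gene by gene. The comparison rested on 4 of the 6 libraries of the series, DMSO replicates 1 and 2 and CBR+SAM replicates 1 and 2. All embryos were wild-type 1-cell embryos from in vitro culture, and strain, doses, culture time and the number of embryos per library are not given in the sources used here. The other 2 libraries, from embryos with CBR-5884 alone (CBR), entered the fit for its estimate of the spread, and their values are given as a reference. Of the 36065 genes of the table, the 11962 that reached a value of 1 in 2 or more of the 4 libraries were described. They comprised 10821 protein-coding genes, 1071 pseudogenes, 48 genes of other types and 22 records absent from the annotation, and 5959 of them had a mean of at least 10 over the 4 libraries. Values are on a scale like TPM, which divides by transcript length, and differences are CBR+SAM minus DMSO on the scale of log2(value + 1), which understates the change of low genes. A difference of 1 on this scale is a doubling for genes well above the pseudocount.

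Cells build serine from a glycolytic intermediate, starting with the enzyme Phgdh, which CBR-5884 inhibits. Serine hands a 1-carbon unit to folate, folate passes it to the methionine cycle, and that cycle makes SAM, the methyl donor of the enzymes that methylate histones, DNA and RNA. The zygote still lives largely on mRNA stored by the oocyte, while the minor wave of genome activation begins in its pronuclei. The comparison asked how far the transcripts of embryos given the inhibitor together with SAM lay from those of the solvent control.

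The fitted differences between the groups were small for most genes with appreciable levels. Among the 5959 genes whose mean reached 10, 97.9% had a fitted difference within 0.5 on the log2 scale. This fitted value averages the 2 replicate numbers, so opposite differences cancel in it. Under number 1 alone 97.1% lay within 0.5, and under number 2 alone 82.8%. The 95% interval lay within 1 in either direction for 5577 of them, or 93.6%. It lay within 0.5 for 1953, or 32.8%, and its median half-width was 0.435, so most genes were not bounded at 0.5. A single gene of the 11962 tested, or 0.00836%, passed an adjusted p of 0.05 (limma with Benjamini-Hochberg adjustment), and it was a short pseudogene, Gm16550. This record entered the tested genes through the CBR+SAM libraries alone, so it had to differ between the groups to be tested, and with no filter on low values no gene passed. At an unadjusted p under 0.05, 117 genes (0.978%) were higher and 140 (1.17%) lower with CBR+SAM than with DMSO. With equal column sums for all libraries, where the median of the fitted differences was -0.08, these became 75 higher and 220 lower. The groups did not overlap for 1477 higher genes (12.3%) and 1449 lower ones (12.1%), and the difference had the same sign under both replicate numbers for 2613 higher genes (21.8%) and 2555 lower ones (21.4%). The counts in the gene lists that follow are set against these shares. With 2 libraries a group, an exact permutation test cannot give a two-sided p below 0.333 and was not used.

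The replicate numbers did not give the same picture. CBR+SAM replicate 1 lay close to DMSO replicate 1, with an SD of the difference over the 5959 genes of 0.268 and 97.1% of them within 0.5. CBR+SAM replicate 2 lay further from DMSO replicate 2, with an SD of 0.442 and 82.8% within 0.5. Its distance from the other library of its own group was also larger: the SD of replicate 2 minus replicate 1 was 0.539 in CBR+SAM, 0.353 in DMSO and 0.347 in CBR. CBR+SAM replicate 2 thus stood apart from the other libraries, and the values of both replicates are given for the genes below. Over all tested genes, 128 differed by more than 1 on the log2 scale under replicate number 1, 66 higher and 62 lower, and 307 under replicate number 2, 146 higher and 161 lower. The differences passed 1 in the same direction under both numbers for 21 genes and in opposite directions for 26. Without CBR+SAM replicate 2, 1 gene passed the adjusted threshold, the pseudogene Gm6565, at 87.64 and 85.04 in the DMSO libraries, 3.66 in CBR+SAM replicate 1 and 101.2 in replicate 2. Without CBR+SAM replicate 1, 2 coding records passed, AC123873.3 and Gm3286, which were at 157.8 and 48.1 in replicate 1 and at or near 0 in replicate 2, against 155.1 to 163.2 and 22.22 to 28.63 in the DMSO libraries. None of these calls covered both CBR+SAM libraries. Across the 5959 genes, which are not independent replicates, the differences under the 2 numbers had a Pearson correlation of -0.266, and 39.2% had the same sign. Their median difference was 0.019 under number 1 and -0.045 under number 2. Over all 11962 tested genes the medians were 0.006 and -0.005, and 43.2% had the same sign. The list medians by replicate number that follow are set against these values.

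**Figure D1:**
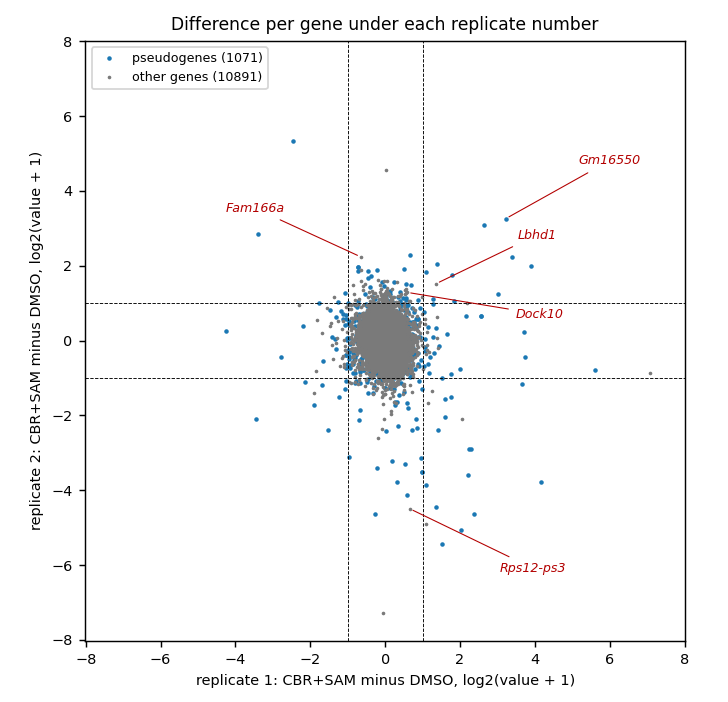
Difference of each of the 11962 tested genes, CBR+SAM minus DMSO on the log2(value + 1) scale, under replicate number 1 (horizontal axis) and replicate number 2 (vertical axis), with 1071 pseudogenes in blue, all other genes in grey, and dashed lines at a difference of 1 in either direction. The cloud is wider along the vertical axis, and 18 of the 21 points past 1 in the same direction under both numbers are pseudogenes, with Gm16550 and Lbhd1 at the upper right.

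Gm16550, the gene that passed the threshold, is a processed pseudogene, an intronless copy of an mRNA inserted in the genome. It (ENSMUSG00000089967) lies on the minus strand of chromosome 1 at 165148824 to 165148949 of GRCm38 (mm10), within an intron of Tbx19 and on the same strand. Its 126 bases are shown because nearly all of them are shared with an expressed gene, Dnajc9, which encodes a co-chaperone of histones. The 1 base in capitals is the one that differs from the Dnajc9 transcript, T1G with the pseudogene's base first, counted from the 5′ end of the pseudogene.
Gm16550: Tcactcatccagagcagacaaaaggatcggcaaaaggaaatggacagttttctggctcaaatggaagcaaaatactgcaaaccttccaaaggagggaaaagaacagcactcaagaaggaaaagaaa
The 126 bases align without a gap with positions 779 to 904 of the 1631 bases of the Dnajc9 transcript, inside its coding part, and 125 of them match.

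Gm16550 was listed at 0 in both DMSO libraries, at 0 and 0.000873 in those with CBR, and at 8.34 and 8.59 in those with CBR+SAM. Both CBR+SAM libraries therefore lay above the 4 others, by a log2 difference of 3.24 (SE 0.20, adjusted p = 0.0076 by limma). No fold is given against a group at 0. Since the filter of a value of 1 was met by the CBR+SAM libraries alone, this p describes a gene that could be tested only because it differed. The smallest value that 2 other records of 126 bases shared within 0.1% was taken as 1 read. On that basis the CBR+SAM values stand for about 10.1 and 10.6 reads. This is a rough estimate, since only 6 and 5 such records were above 0 and the shared value may stand for more than 1 read. None could be made for DMSO replicate 2 or CBR replicate 1. If it holds, the call rests on few reads. Dnajc9 itself stood at 132 and 135 under DMSO, 124 and 133 under CBR, and 127 and 106 under CBR+SAM, and Tbx19 lay between 11.9 and 17.9 in all 6 libraries. A read inside the shared stretch fits the pseudogene and Dnajc9 alike, and how the authors' quantification divided such reads was not tested. The adjusted p passed 0.05 without DMSO replicate 2 (0.0329), and rose to 0.0582 to 0.079 when any other of the 6 libraries was left out. It was 0.262 with a pseudocount of 0.1 and 0.132 with no filter on low values.

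Differences past 1 in the same direction under both replicate numbers were found mostly at low values. Of the 21 genes past 1 in the same direction under both numbers, 12 higher and 9 lower, 18 were pseudogenes, 2 protein-coding genes (Lbhd1 and Gm20422) and 1 absent from the annotation. The filter was met through 1 group alone, with values of at least 1 in both of its libraries and below 1 in both of the other group, by 15 of the 21 and by 14 of the 18 pseudogenes, against 1.29% of all tested genes. Such genes had to differ, and nothing is read from their number. A coding gene with at least 95% identity over at least 50% of the length was found for 17 of the 18 pseudogenes, and how reads were divided between a pseudogene and that gene was not tested. Nutf2-ps2, a copy of the nuclear import gene Nutf2, had 0 in the DMSO libraries against 9.44 and 3.73 under CBR+SAM. Rpl38-ps2, a copy of the ribosomal protein gene Rpl38, was at or near 0 under DMSO and at 5.29 and 7.59 under CBR+SAM. The sizes of such differences depend on the pseudocount. Unadjusted p-values under 0.05 were found for 7.66% of the pseudogenes and 1.6% of the protein-coding genes, and for 53 of the 154 genes that met the filter through 1 group alone.

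Among protein-coding genes whose mean reached 10 and whose groups were separate, those with the smallest unadjusted p, 10 higher and 9 lower, are described next. All 19 had an adjusted p of 1 by limma, and none is a call. Lbhd1 differed most. It stood at 8.61 and 11.7 under DMSO, 19.3 and 17.7 under CBR, and 23.7 and 35.5 under CBR+SAM. Both CBR+SAM libraries lay above all others and both DMSO libraries below them, with a log2 difference of 1.44 (SE 0.24, unadjusted p = 0.000474 by limma) and 1.36 and 1.52 under replicate numbers 1 and 2. Lbhd1 (chromosome 19, 8883732 to 8892627, plus strand) overlaps 1810009A15Rik on the same strand, and its value is uncertain for that reason.

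Lcp1, which encodes the actin-bundling protein L-plastin, stood at 102 and 85.4 under DMSO, 82.5 and 94.1 under CBR, and 137 and 139 under CBR+SAM. Its DMSO and CBR libraries overlapped, and both CBR+SAM libraries lay above them, by 0.56 over DMSO (SE 0.16, unadjusted p = 0.00856 by limma). Dock10, an activator of small GTPases, stood at 376 and 458 under DMSO, 479 and 548 under CBR, and 566 and 1122 under CBR+SAM. Here replicate 2 carried most of the difference, which was 0.59 under replicate number 1 and 1.29 under number 2, and without that library the fitted difference was 0.45 in place of 0.94. The zinc finger gene Zfp236 was at 14.3 and 15.4 under DMSO and 21.8 and 27.3 under CBR+SAM, and higher still with CBR alone, at 39.4 and 30.

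The other 6 genes on the higher side had smaller or less even differences. Samd15 stood at 45.5 and 44.9 under DMSO and 57.7 and 93.1 under CBR+SAM. Slirp, an RNA-binding protein of mitochondria, stood at 9.34 and 9.98 against 12.8 and 18.9, but its longest transcript shares 89% of its length with Snw1 and it is uncertain. Rrp9, a component of the U3 small nucleolar ribonucleoprotein, was at 19.2 and 19.4 against 25 and 28.3, with CBR at 25.3 and 26.3. These CBR values lay within the CBR+SAM range for Rrp9, whereas for Mtfmt they overlapped those of DMSO. Mtfmt, which formylates the initiator methionyl-tRNA of mitochondria with a folate-bound carbon unit, stood at 33.3 and 29 under DMSO, 33.9 and 30.7 under CBR, and 41.8 and 43.1 under CBR+SAM. Ezh1, a histone H3 lysine 27 methyltransferase, stood at 19.2 and 17.1 under DMSO and 24.7 and 27.6 under CBR+SAM. Erp44, a protein-folding factor of the secretory pathway, stood at 17.7 and 19.1 against 24.2 and 27.6.

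On the lower side, Rac3, a small GTPase that acts on the actin cytoskeleton, had the most even values. It stood at 12.7 and 12.7 under DMSO, 14.7 and 13.3 under CBR, and 8.56 and 8.4 under CBR+SAM, a log2 difference of -0.53 (SE 0.16, unadjusted p = 0.0131 by limma). Chd4, the helicase of the NuRD chromatin complex, stood at 15.2 and 15.9 under DMSO, 18.2 and 16.3 under CBR, and 11.7 and 8.46 under CBR+SAM. Its CBR+SAM libraries lay below the 4 others, by 0.36 and 0.84 under replicate numbers 1 and 2 on the log2 scale (fitted difference -0.60, SE 0.20). Dmap1, a subunit of the TIP60 acetyltransferase complex that also binds Dnmt1, stood at 14.3 and 17.8 under DMSO, 13.8 and 13.8 under CBR, and 11.1 and 10.4 under CBR+SAM. Zfp24 stood at 17 and 16.9 against 12.4 and 11.8, and Fgd6, an exchange factor for Cdc42, at 22.1 and 26.7 against 17.5 and 15.7.

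Dennd1a, an exchange factor for Rab35, depended on replicate 2. It stood at 23.6 and 22.8 under DMSO and 18.2 and 11 under CBR+SAM, and its fitted difference of -0.68 became -0.34 without CBR+SAM replicate 2. Vwce was at 61 and 58.9 against 36.1 and 46. Mtif3, a mitochondrial translation initiation factor, was at 44.4 and 52.2 against 37.5 and 31.2 and overlaps Gtf3a on the opposite strand. Zfp433 was at 43.1 and 46.8 against 29.1 and 35.5 and has a near-identical copy, Gm32687, so that both are uncertain.

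**Figure D2:**
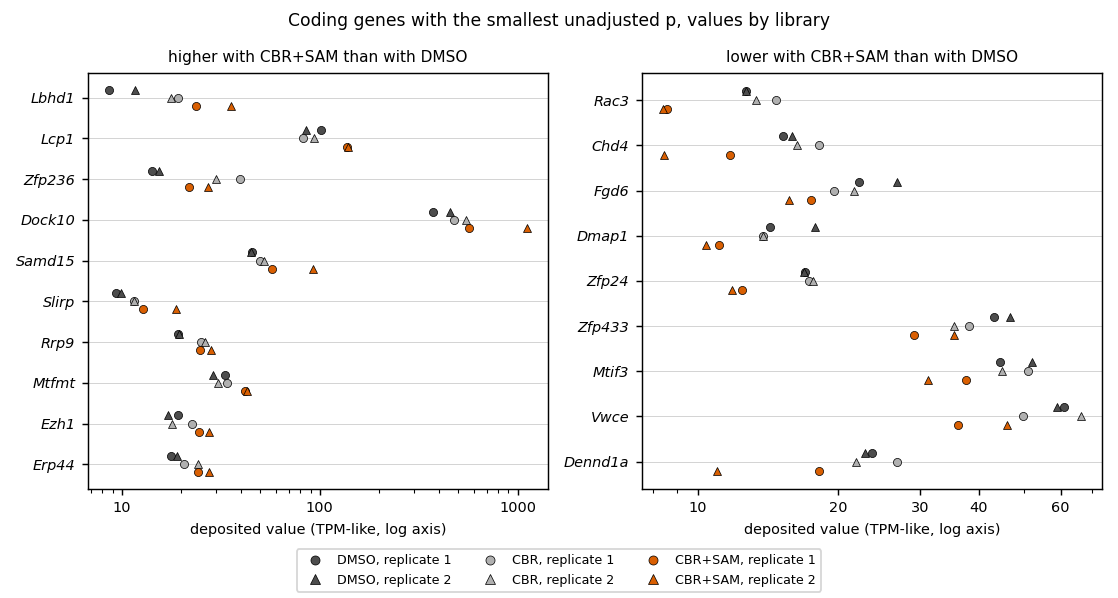
Deposited values (log axes) of 19 protein-coding genes with the smallest unadjusted p, 10 higher (left) and 9 lower (right) with CBR+SAM, each symbol 1 library, with circles for replicate 1, triangles for replicate 2, dark grey for DMSO, light grey for CBR and orange for CBR+SAM. The orange symbols of each gene lie on one side of the dark grey ones, as the choice of these genes requires, and the orange triangle of Dock10 at 1122 lies far from the circle at 566.

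Serine synthesis genes were low in both groups. Phgdh, the target of the inhibitor, stood at 4.34 and 5.95 under DMSO, 4.81 and 4.28 under CBR, and 4.29 and 6.05 under CBR+SAM. The groups overlapped, and the 95% interval of the fitted difference ran from -0.54 to 0.55, though 7 near-identical pseudogene copies make its value uncertain. Psph, the last enzyme of the synthesis, stood at 4.78 and 6.03 under DMSO and 6.83 and 5.28 under CBR+SAM. Psat1, which acts between them, was at most 0.113 in the 4 libraries, too low to test. Of 24 listed genes of serine and glycine synthesis and cleavage 13 were tested, and none was called or had an unadjusted p under 0.05. Of the 13, 1 was higher with no overlap and none lower, against 12.3% and 12.1% of all genes. The list's median difference was 0.07 under replicate number 1 and rounded to 0 under number 2.

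Shmt1 and Shmt2 move the carbon unit from serine to folate in the cytosol and in mitochondria. Shmt1 stood at 8.48 and 3.07 under DMSO, 11.2 and 4.05 under CBR, and 10.9 and 3.07 under CBR+SAM. Replicate 1 was above replicate 2 in each of the 3 groups, by more than the groups differed. Shmt2 stood at 13.3 and 13.1 under DMSO and 11.9 and 14 under CBR+SAM. The mitochondrial dehydrogenase Mthfd2 stood at 113 and 114 against 119 and 100, and the cytosolic Mthfd1 at 10.1 and 8.73 against 8.85 and 8.65.

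Of 22 folate genes 14 were tested, with no call and 1 higher at an unadjusted p under 0.05, Mtfmt. Higher values with no overlap were found for 4 of the 14, against 12.3% of all genes, and lower ones for none. Mthfs, which returns a folate storage form to the cycle, was at 217 and 209 under DMSO and 243 and 276 under CBR+SAM, and its CBR values, 243 and 239, were also above those of DMSO. Slc19a1, the reduced folate carrier, was at 1.05 and 0.662 under DMSO and 1.61 and 1.55 under CBR+SAM. The median of the list was 0.15 under replicate number 1 and 0.04 under number 2, and with equal column sums the latter was -0.08.

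The transporters followed the same levels. Of 18 serine and glycine transporters 5 were tested, with no call and no unadjusted p under 0.05. Slc3a2, the heavy chain of several amino acid exchangers, stood at 72.3 and 87.9 under DMSO and 89.4 and 67.8 under CBR+SAM, and the glycine transporter Slc6a9 at 17.5 and 14.7 against 19.4 and 14.2. Slc1a4 was listed at 0 in 3 of the 4 libraries, Slc38a2 was at most 0.0868, and Sfxn1, the mitochondrial serine carrier, at most 0.79.

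In the methionine and SAM cycle, 26 of 35 genes were tested, with no call, and 1 was lower at an unadjusted p under 0.05. The list's median was -0.04 under replicate number 1 and 0.09 under number 2. The lower gene was Srm, which makes spermidine from decarboxylated SAM, at 25.6 and 26.4 under DMSO, 21.1 and 22.1 under CBR, and 20.7 and 19.6 under CBR+SAM (difference -0.35, SE 0.15, unadjusted p = 0.0485 by limma). Both groups with the inhibitor lay below DMSO. Amd1, which decarboxylates SAM for the same pathway, stood at 84.8 and 81.1 under DMSO and 92.6 and 113 under CBR+SAM. Mat2a, the catalytic subunit of the SAM synthetase, stood at 46.5 and 45.5 under DMSO, 38.2 and 47.2 under CBR, and 41.2 and 29.8 under CBR+SAM. Its groups did not overlap, but its difference of -0.38 (95% interval -0.85 to 0.09) became -0.16 without CBR+SAM replicate 2. The regulatory subunit Mat2b stood at 1516 and 1528 against 1684 and 1287, and the methionine synthase Mtr at 4.21 and 5.85 against 7.74 and 5.69. Ahcy, which clears the product of methylation, was at most 0.588 in the 4 libraries and not tested.

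**Figure D3:**
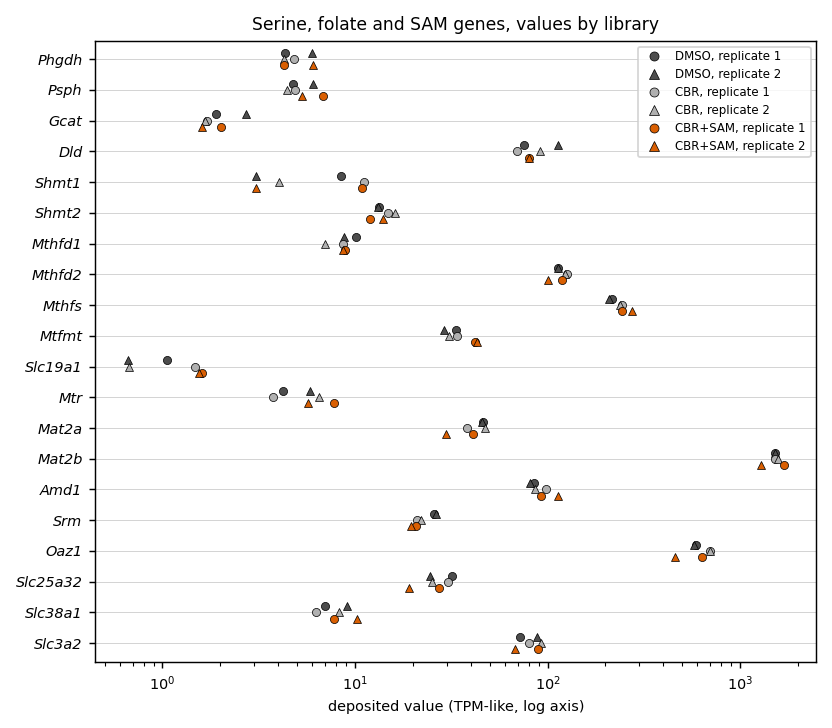
Deposited values (log axis) of 20 genes of serine, folate and SAM metabolism and transport, each symbol 1 library, with circles for replicate 1, triangles for replicate 2, dark grey for DMSO, light grey for CBR and orange for CBR+SAM. Most genes overlap between the groups, and Shmt1 separates by replicate number (8.48 to 11.2 against 3.07 to 4.05). Mtfmt, Mthfs, Slc19a1 and Amd1 have both orange symbols above the dark grey ones, and Srm and Mat2a have both below.

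Histone lysine methyltransferases use SAM to mark chromatin. Of 45 listed, 40 were tested, none was called, and 3 were higher at an unadjusted p under 0.05, Ehmt2, Ezh1 and Kmt2d, against 0.978% of all genes. Higher values with no overlap were found for 10 of the 40 and lower ones for 6, against 12.3% and 12.1% of all genes, and the median was 0.03 and 0.10 under replicate numbers 1 and 2, or 0.01 and -0.04 with equal column sums. Ehmt2, which encodes the histone H3 lysine 9 methyltransferase G9a, stood at 1.7 and 1.43 under DMSO, 4.05 and 3.62 under CBR, and 3.16 and 2.95 under CBR+SAM. The CBR+SAM libraries lay between the other groups, with no overlap, 0.66 above DMSO (SE 0.19, unadjusted p = 0.0107 by limma). The level was low, and the difference was 0.63 and 0.70 under replicate numbers 1 and 2. Kmt2d, a histone H3 lysine 4 methyltransferase, stood at 2.86 and 2.72 under DMSO, 3.57 and 3.12 under CBR, and 3.91 and 4.73 under CBR+SAM (difference 0.48, SE 0.20, unadjusted p = 0.0414 by limma). Ezh2, the relative of Ezh1 in the Polycomb complex, stood at 590 and 540 against 535 and 779. Dpy30, a core subunit of the lysine 4 methyltransferases, stood at 1659 and 1505 under DMSO and 1769 and 2013 under CBR+SAM.

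Arginine methyltransferases showed the gap between the replicate numbers. Of 11 genes 7 were tested, with no call and no unadjusted p under 0.05, and the median was 0.05 under replicate number 1 and -0.45 under number 2. Prmt1, the main source of asymmetric dimethylarginine, stood at 3.31 and 5.12 under DMSO and 4.11 and 1.76 under CBR+SAM, so its CBR+SAM libraries lay on either side of the lower DMSO library. Prmt5, which makes symmetric dimethylarginine, stood at 2.76 and 3.35 under DMSO, 4.31 and 5.58 under CBR, and 3.41 and 3.78 under CBR+SAM.

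Histone demethylases had no call and no unadjusted p under 0.05 among 20 tested, and medians of 0.05 and 0.01 under replicate numbers 1 and 2, the latter -0.12 with equal column sums. The lysine 4 demethylase Kdm5b stood at 1.86 and 2.33 under DMSO and 2.44 and 1.43 under CBR+SAM. Kdm2a, a lysine 36 demethylase, stood at 72.5 and 76.3 under DMSO, 49.1 and 53.2 under CBR, and 69.8 and 94.8 under CBR+SAM. Its CBR libraries lay below the 4 others, and DMSO and CBR+SAM overlapped. Kdm5a and Kdm2b had their highest value in CBR+SAM replicate 2, at 1475 and 32.5, while replicate 1, at 895 and 20.5, lay below or within the DMSO range of 947 to 964 and 20.1 to 22.6.

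For DNA methylation and demethylation, 24 of 26 genes were tested and none was called, with 1 higher and 1 lower at an unadjusted p under 0.05 and medians of -0.03 and 0.08 by replicate number. The higher one was Tet1, which oxidises 5-methylcytosine, at 6.95 and 7.31 under DMSO, 8.53 and 8.21 under CBR, and 9.35 and 10.4 under CBR+SAM (difference 0.42, SE 0.17, unadjusted p = 0.0411 by limma). Tet3, the main dioxygenase of the zygote, stood at 45.9 and 47.4 under DMSO and 43.1 and 61.9 under CBR+SAM. The lower one was Mbd1, a reader of methylated DNA, at 3.14 and 2.84 under DMSO, 2.41 and 2.18 under CBR, and 1.93 and 1.65 under CBR+SAM (difference -0.52, SE 0.20, unadjusted p = 0.0329 by limma). For Tet1 and Mbd1 the CBR libraries lay between those of DMSO and CBR+SAM. The de novo methyltransferase Dnmt3a stood at 36.3 and 31.3 against 43.3 and 43.5, and the maintenance enzyme Dnmt1 at 120 and 149 against 137 and 107. Dppa3, a maternal factor that guards methylation in the female pronucleus, stood at 13565 and 13631 under DMSO and 13969 and 17885 under CBR+SAM.

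The Gadd45 genes encode small stress-inducible proteins with a reported role in DNA demethylation. Gadd45g stood at 6.63 and 7.67 under DMSO, 1.17 and 0.766 under CBR, and 7.7 and 6.45 under CBR+SAM. The CBR+SAM libraries overlapped those of DMSO, with a fitted difference of -0.01 and a 95% interval from -0.51 to 0.48, and the CBR libraries lay below the 4 others. Gadd45b stood at 1.21 and 1.28 under DMSO, 0.309 and 0.522 under CBR, and 0.906 and 1.14 under CBR+SAM, where all 3 groups were separate and CBR+SAM was the middle one. Gadd45a overlapped between DMSO, at 2.32 and 1.77, and CBR+SAM, at 1.97 and 2.47. The RNA methylation genes, 28 of 30 tested, had no call, no unadjusted p under 0.05 and medians of 0.01 and 0.11, and the catalytic subunit Mettl3 stood at 435 and 492 against 393 and 567.

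**Figure D4:**
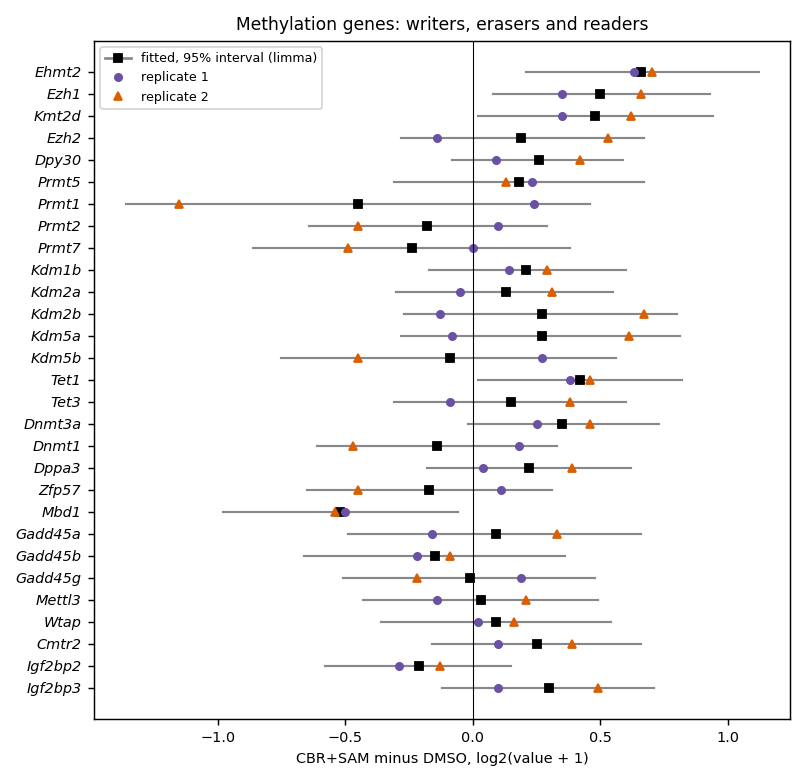
Fitted difference, CBR+SAM minus DMSO on the log2(value + 1) scale, of 29 genes that write, remove or read methyl groups or are linked to demethylation (black squares, with the 95% interval from limma as grey lines), with the differences under replicate number 1 (purple circles) and number 2 (orange triangles). The intervals of Ehmt2, Ezh1, Kmt2d, Tet1 and Mbd1 lie on one side of 0, without adjustment for the number of genes tested, and Prmt1 has the widest gap between the replicate numbers, at 0.24 and -1.15.

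Of 41 listed genes of the minor genome activation, 20 were tested, with no call and no unadjusted p under 0.05. With no overlap 2 were higher and 2 lower, against 12.3% and 12.1% of all genes. The list's median was 0.09 under replicate number 1 and -0.11 under number 2. Zscan4d, a marker of the 2-cell program, stood at 7.41 and 10.9 under DMSO, 7.51 and 5.9 under CBR, and 6.44 and 8.36 under CBR+SAM. Tcstv1 stood at 138 and 193 under DMSO and 165 and 234 under CBR+SAM, with replicate 2 above replicate 1 in each group. Arg2 stood at 321 and 329 under DMSO, 260 and 271 under CBR, and 308 and 265 under CBR+SAM.

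The Obox homeobox genes, maternal and zygotic activators of the embryonic genome, lay above DMSO under both replicate numbers in all 5 members tested, against 21.8% of all genes. With equal column sums or with quantile normalization this held for 4 of the 5. The list's median difference was 0.17 and 0.36 under replicate numbers 1 and 2, and 0.15 and 0.21 with equal column sums. Obox1 stood at 5421 and 5608 under DMSO, 6130 and 6723 under CBR, and 6476 and 7071 under CBR+SAM (difference 0.30, SE 0.14, unadjusted p = 0.079 by limma). Obox5 stood at 3613 and 3822 under DMSO and 4060 and 4485 under CBR+SAM, and Obox7 at 531 and 602 against 617 and 857. For Obox2 the groups overlapped, at 3627 and 3749 against 3661 and 4803. No member had an unadjusted p under 0.05. The members share near-identical copies, with Obox2 covering 96.8% of Obox1, so they do not count as separate measurements.

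Of the oocyte and maternal-effect genes, 55 were tested with no call and no unadjusted p under 0.05, and their balance depended on the scaling. On the deposited scale 7 were higher and 7 lower with no overlap, against 12.3% and 12.1% of all genes. Under both replicate numbers 13 were higher and 12 lower, against 21.8% and 21.4%, and the medians were 0.03 and -0.05. With equal column sums 1 was higher with no overlap, and 4 were higher and 20 lower under both numbers. With quantile normalization these counts were 2, 5 and 15. Btg4, which starts the removal of maternal mRNA, stood at 5437 and 6222 under DMSO and 5758 and 6573 under CBR+SAM. The oocyte growth factor Gdf9 stood at 275 and 308 against 249 and 250, the lattice protein Padi6 at 106 and 144 against 104 and 96.5, and Omt2b at 15562 and 13099 against 15583 and 19382. The genes for mRNA storage and decay, 51 tested, had medians of -0.02 and 0.01. Of the 51, 5 were higher and 7 lower with no overlap, against 12.3% and 12.1% of all genes. Among them Cnot7, a deadenylase, stood at 1016 and 1126 under DMSO and 1214 and 832 under CBR+SAM.

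DNA damage and repair genes, 83 tested, had no call and no unadjusted p under 0.05, with medians of 0.05 and -0.10 by replicate number. With no overlap 7 were higher and 6 lower, against 12.3% and 12.1% of all genes. Chek2, a checkpoint kinase, stood at 31.6 and 42.5 under DMSO, 42.3 and 67.1 under CBR, and 46.5 and 104 under CBR+SAM, and its replicate 2 was above replicate 1 in each group. Tonsl, which recognises newly replicated histones, stood at 2.79 and 3.96 under DMSO and 2.21 and 1.83 under CBR+SAM. Of the p53 and apoptosis genes, 29 were tested with no call. Their median was 0.10 under both numbers, or 0.07 and -0.02 with equal column sums. Cdkn1a, the classical p53 target, stood at 1.21 and 1.04 under DMSO, 1.25 and 1.19 under CBR, and 1.44 and 1.46 under CBR+SAM. Of 53 replication genes and 66 genes of the cell cycle and meiotic exit none was called or had an unadjusted p under 0.05, and the medians were 0.05 and -0.03 for the former and 0.05 and -0.06 for the latter. Cyclin B1 (Ccnb1) stood at 1925 and 2119 under DMSO and 2323 and 1445 under CBR+SAM, and securin (Pttg1) at 10836 and 10724 against 11379 and 15060.

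Heat shock genes showed a split by replicate number. Of 50 heat shock and chaperone genes 43 were tested with no call, and 26 were higher under replicate number 1 while 31 were lower under number 2. The medians were 0.07 and -0.30, against 0.006 and -0.005 over all tested genes. Hspa5, the chaperone of the endoplasmic reticulum, stood at 69.1 and 78.6 under DMSO, 66.3 and 70.5 under CBR, and 60.4 and 40.1 under CBR+SAM. It was the member at an unadjusted p under 0.05 (0.029 by limma, difference -0.57, SE 0.21), and its difference without CBR+SAM replicate 2 was -0.28. Tcp1, a subunit of the cytosolic chaperonin, stood at 55.5 and 66.6 against 50.8 and 41.7, and Hsp90aa1 at 2532 and 3006 against 2904 and 3430. Hspa5 and Tcp1 were lower under both replicate numbers and Hsp90aa1 higher under both, so these genes did not follow the split of the list. The integrated stress response genes, 20 tested with no call, had medians of -0.07 and -0.04. None was higher and 4 were lower with no overlap, against 12.3% and 12.1% of all genes. The regulator of this response, Atf4, stood at 26.4 and 36.2 under DMSO and 25 and 33.2 under CBR+SAM. Asns, a target of Atf4, stood at 1.24 and 1.58 against 1.02 and 0.231.

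Mitochondrial transcripts gave the widest gap. The 13 mitochondrially encoded genes had a median difference of -0.06 under replicate number 1, with 10 of them lower, and of 0.95 under number 2, with all 13 higher, and this gap was also present under the 3 other scalings. Among these genes mt-Atp6 stood at 13546 and 7204 under DMSO, 14915 and 10054 under CBR, and 11133 and 17262 under CBR+SAM. DMSO replicate 2 had the lowest value and CBR+SAM replicate 2 the highest. The complex I gene mt-Nd2 stood at 2173 and 1261 under DMSO, 928 and 622 under CBR, and 2128 and 2254 under CBR+SAM, and mt-Cytb of complex III at 4439 and 3592 under DMSO, 3134 and 2905 under CBR, and 4138 and 6949 under CBR+SAM. These genes took 6.16% and 3.83% of the total with DMSO and 5.42% and 7.24% with CBR+SAM. None had an unadjusted p under 0.05.

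Nuclear genes of the respiratory chain and genes of cytosolic ribosomal proteins split in the same sense, with smaller differences. Opposite signs were common outside these lists too, since 43.2% of all tested genes had the same sign under both numbers. Of 79 nuclear respiratory chain genes 55 were lower under replicate number 1 and 58 higher under number 2, and of 81 cytosolic ribosomal protein genes 51 were lower under number 1 and 63 higher under number 2. With equal column sums the higher genes under number 2 numbered 43 and 52. Many ribosomal protein genes have near-identical pseudogenes and are uncertain. Other translation lists had smaller gaps, with medians by replicate number of -0.01 and 0.05 for initiation and elongation factors. Those of mitochondrial ribosomal protein genes were -0.04 and 0.01. Ndufs1, a core subunit of complex I, stood at 9.81 and 10.1 under DMSO and 11.6 and 14.3 under CBR+SAM, higher under both numbers. Cox5a of complex IV, at 965 and 834 against 877 and 922, followed the split. The opposite split was found for purine and pyrimidine synthesis, with 20 of 27 genes higher under number 1 and 22 lower under number 2. Hprt, the purine salvage enzyme, stood at 506 and 457 under DMSO and 522 and 490 under CBR+SAM, higher under both numbers. Dctd, which supplies deoxyuridine monophosphate, stood at 59.7 and 63 against 56.8 and 44.8, lower under both. Neither gene followed the split of its list.

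In central carbon metabolism, 50 genes of glycolysis and the tricarboxylic acid cycle were tested, with no call and medians of 0.01 and -0.11. With no overlap 4 were higher and 9 lower, against 12.3% and 12.1% of all genes. Idh3g, a subunit of the mitochondrial isocitrate dehydrogenase, stood at 4.82 and 4.65 under DMSO, 2.94 and 2.78 under CBR, and 2.18 and 2.83 under CBR+SAM. Both groups with the inhibitor lay below DMSO, and CBR+SAM differed from DMSO by -0.72 (SE 0.20, unadjusted p = 0.00788 by limma). Idh3b, which encodes another subunit of the same enzyme, stood at 4.29 and 2.54 under DMSO, 2.18 and 1.92 under CBR, and 1.9 and 2.29 under CBR+SAM. The lactate dehydrogenase gene Ldhb stood at 3553 and 4082 against 3788 and 3358, and Gpi1 at 7.01 and 4.98 against 6.53 and 9.59.

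**Figure D5:**
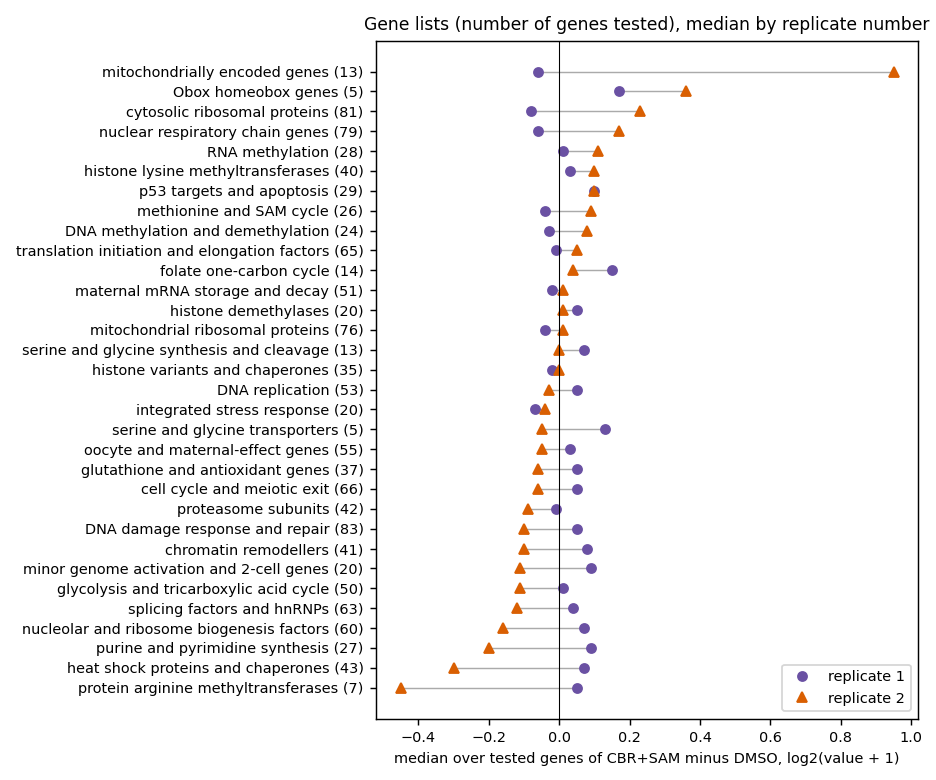
Median difference, CBR+SAM minus DMSO on the log2(value + 1) scale, over the tested genes of 32 lists, under replicate number 1 (purple circles) and number 2 (orange triangles), with the number of genes tested in brackets and the lists ordered by the median under number 2. The medians under number 1 lie between -0.08 and 0.17, and those under number 2 between -0.45 and 0.95. Over all tested genes they were 0.006 and -0.005.

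Several coding genes whose mean reached 10 were far apart under at least 1 replicate number. Ulk4 stood at 59 and 36.1 under DMSO and 32.3 and 103 under CBR+SAM (-0.85 and 1.49). Its differences had opposite signs under the 2 numbers. Fam166a stood at 16.8 and 12 under DMSO and 10.3 and 60.4 under CBR+SAM, and Baiap2l1, which links membranes to actin, at 246 and 237 against 247 and 88.1. In both the outlying value belonged to CBR+SAM replicate 2. Manba, a lysosomal mannosidase, stood at 31.7 and 7.61 under DMSO, 29.2 and 10.9 under CBR, and 16.5 and 2.93 under CBR+SAM, with differences of -0.90 and -1.13 in the same direction and replicate 1 above replicate 2 in each group.

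The libraries showed the defining transcripts of zygotes, and depth was not given with the values. All 14 zygote and oocyte markers were high enough to test, and 11529 to 11873 genes of each library reached a value of 1. Of 30 cumulus cell markers 3 were tested, 25 were below 1 in all 4 libraries and 3 of these were listed at 0, and the list summed to 538.2 and 515.2 under DMSO and 621.7 and 244.1 under CBR+SAM. Nearly all of it was Serpine2, at 524 and 496 against 602 and 225. Of the 2 other tested markers, Cyp19a1 stood at 8.14 and 12.3 under DMSO and 13.6 and 11.9 under CBR+SAM, and Kitl at 2.48 and 3.7 against 2.15 and 2.54. Under replicate number 2 all 3 were lower with CBR+SAM, with log2 differences of -1.14 for Serpine2, -0.41 for Kitl and -0.04 for Cyp19a1. In such libraries fewer cells of a type and less RNA per cell cannot be told apart. Which cells these transcripts came from was not tested, and neither was the part of these markers in the other results. Of 20 sperm markers 5 were tested and 6 were listed at 0, and the list summed to 45.4 to 50.63 in the 4 libraries. Of 15 oviduct markers 6 were tested, with sums of 16.68 to 20.87, and of 15 blood markers 1, with sums of 1.925 to 3.316. Under replicate number 2 the genes with the shortest transcripts stood apart from the rest. Among the 1119 coding genes with the shortest transcripts, of those whose mean reached 10, the median difference was 0.07. In the 4 groups of longer ones it was -0.05 to -0.09, with no further fall as length rose. Under replicate number 1 these medians were -0.01 and 0.01 to 0.03. The part of transcript length in the results was not tested.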

How the data were processed

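RNA-seq values of 6 libraries of mouse 1-cell embryos were used, 2 biological replicates for each of DMSO, CBR and CBR+SAM per the labels. Whether replicates came from separate cultures is not stated, so p-values cover no more than the spread among these libraries. Libraries were made with SMART-Seq v4 and Nextera XT, per the labels' protocols, with no strand marking or molecular identifiers described. The deposited table holds 1 signal value per gene and library, which resembles the TPM of kallisto. fastp, kallisto, DESeq2 and mm10 are named in the submitters' processing notes without versions or roles. The columns sum to 956209 to 1059424, so the authors' table carries a further scaling not given in the sources used here. Read depth is unknown.

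Of 36065 Ensembl identifiers, 35820 were matched in GENCODE M21 (mm10 coordinates). Where records shared a symbol, the one with the highest mean stands for it. Values were taken as log2(value + 1). All 6 libraries were fitted in 3 groups with limma 3.58.1 (R 4.3.3), with a trend of the variance on the mean and 3 residual degrees of freedom. Benjamini-Hochberg adjustment ran over 11962 genes, and the threshold was 0.05. The fit was also run on simulated data that had the same spread in all 6 libraries. The spread of the real libraries was unequal, so no conclusion is drawn from that run. Copies were sought with blastn 2.17.0 in M21 transcripts. Genes were named as called genes, as the 10 coding genes per direction with the smallest unadjusted p, a mean of at least 10 and no overlap, as the largest differences under each replicate number, as list members with the smallest p or highest mean, and as a fixed set of pathway genes. Some genes that these rules choose are not reported here. The genes and lists were chosen with earlier results of these data known. Alternatives were other scalings, pseudocounts, filters, a replicate block, array weights, and leaving out each library.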

Additional observations from a re-analysis of the deposited data

How the results depend on the processing

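The count of genes past the adjusted threshold was 1 in the main setting. It was 0 with a pseudocount of 0.1, with a mean of at least 10 (71 genes at an unadjusted p under 0.05), with no filter (926) and with protein-coding genes alone (201). Leaving out 1 library gave 0 to 3 genes, with 3 without DMSO replicate 2 (among them Iglj3 and Gm8203, at 0 and 0.0129 in DMSO replicate 1), and 156 to 2032 at an unadjusted p under 0.05 in place of 257. The low end of the latter (156) came without DMSO replicate 2, the high end (2032) without CBR+SAM replicate 1, and 401 without CBR+SAM replicate 2. Leaving out a library of a pair assumes that the lone one varies like the other groups. Array weights gave 160. Replicate 2 minus replicate 1, over the 11962 tested genes, correlated at 0.225 between DMSO and CBR+SAM, 0.411 between DMSO and CBR, and 0.102 between CBR and CBR+SAM, but with 2 pairs and no label for the number they are taken as sharing only a number. With a replicate block 1 gene was called over 6 libraries and 6 over the 4 compared, all 6 processed pseudogenes. Genes with no overlap numbered 1295 with a mean of at least 10 and 5975 with no filter, in place of 2926. Genes past 1 under both numbers were 62 with a pseudocount of 0.1, 33 with 0.5, and 2 with a mean of at least 10 or protein-coding genes alone, in place of 21, and the SD under replicate number 1 was 0.509 with a pseudocount of 0.1. The differences of Phgdh and Gadd45g, both near 0, changed sign. That of Phgdh was -0.07 with equal column sums, -0.003 with the median ratio, and -0.21 to 0.21 with a library left out, and that of Gadd45g was -0.13 to 0.10 with a library left out. The 29 other genes given with a fitted difference kept their sign in every alternative run. Causes were not tested, apart from the smaller number of genes or libraries that some alternatives hold by construction. Depth is not given with the values and limits low genes to an unknown degree.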
